A study of Mus musculus with 6 samples.

Results

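The genes described are those of the cytosolic ribosomal proteins, in macrophages collected from the peritoneal cavity. They were chosen by gene symbol, as every listed symbol that begins with Rpl or Rps and a number, the stalk genes *Rplp0*, *Rplp1* and *Rplp2*, and *Rpsa*. The 6 pseudogenes and 8 S6 kinase genes that the same letters would take in were left out. In this way 87 members were found among the 15415 genes listed. They comprised 43 genes of large subunit proteins, 31 of small subunit proteins, 3 of the stalk, and 10 paralogues or other genes that carry a ribosomal protein symbol. The first 3 classes are called the 77 canonical genes. The KEGG term Ribosome stood beside 84 of the 87 members in the deposited annotation, and was missing for *Rpl6l*, *Rpl7l1* and *Rps19bp1*. *Rps19bp1* codes for a binding partner of the S19 protein and not for a ribosomal protein.

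The study asked what loss of Tim-4, a phosphatidylserine receptor of macrophages, does to these cells. RNA was sequenced from peritoneal exudate macrophages (PEMs) in 6 libraries. Of these, 3 are titled PEM-CKO (genotype LysM-Cre; Tim-4 fl/fl) and 3 are titled PEM-Control (genotype Tim-4 fl/fl). The mice were male C57BL/6J animals of 6 to 8 weeks, and PEMs were harvested 3 days after an injection of 1 ml of 6% starch. All 6 libraries carry the treatment label lps. Activation of PEMs with LPS at 1 μg/ml for 3.5 h is described, but not whether the sequenced cells received it. Cre was expressed from the lysozyme gene *Lyz2*, and the controls carried no Cre, so the Cre allele and the loss of *Tim-4* cannot be told apart. Under genotype, the labels hold the groups in reverse (WT for PEM-CKO, Tim-4 knockout for PEM-Control), and the titles were used. The study describes its replicates in general as biological, but the labels do not say whether each library was a separate mouse or a pool, so the p-values measure the spread between these libraries.

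The level of *Timd4*, the gene of Tim-4, was 0.333, 0.394 and 0.246 FPKM in CKO libraries 1 to 3 and 19.5, 12.05 and 1.19 FPKM in Control libraries 1 to 3. FPKM are reads relative to gene length and to library size. All CKO libraries lay below all Control libraries, in the direction of the titles, and Control library 3 was the nearest to them (log2 fold change -2.66, limma adjusted p = 0.0715, or 0.0436 under the replicate block). *Lyz2* was at 41.4, 4656 and 106 FPKM in the CKO libraries and 7090.2, 7171 and 8482 FPKM in the Control libraries, with CKO library 2 far from the other two. The 11 general macrophage markers in the table, *Lyz2* among them, were all tested, and 1 rose and 0 fell. Of all genes, 2.57% were called higher and 4.74% lower. With each library left out, 1 to 3 of the 11 rose and 0 to 1 fell. The gene that rose in the main fit was *Fcgr1*, a receptor for IgG, at 50.2, 57.5 and 36.1 FPKM against 5.16, 5.76 and 6.58 FPKM (log2 fold change 2.82, adjusted p = 0.0015). *Adgre1* overlapped between the groups, *Cd68* was at 1572 to 1685 FPKM in CKO and 816 to 1379 FPKM in Control, and *Csf1r* at 83.3 to 143 FPKM and 151 to 179.6 FPKM. The libraries held between 36170767 and 42217558 reads on the listed genes, and each canonical gene had at least 2609 reads in every library, so counting error was small for these genes.

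Each ribosome is built from a large and a small subunit, whose proteins are assembled on ribosomal RNA in the nucleolus. Most of these proteins are present once per ribosome, and their genes are among the most strongly transcribed of any growing cell. Their mRNAs start with a run of pyrimidines, the 5′ terminal oligopyrimidine (TOP) motif, through which mTOR controls how well they are translated. A level of mRNA therefore does not give the rate at which the protein is made.

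The starts of 5 genes are shown because they are the gene past the threshold (*Rpl24*), the canonical gene with the next lowest adjusted p (*Rpl13a*), a gene and its near-copy (*Rps27* and *Rps27rt*), and the most abundant member (*Rpl41*). Each line gives 15 bases before the annotated start and 15 from it on, from RefSeq on GRCm38.p6, and capitals mark CTTTCC. *Rpl24* lies at chr16:55966260-55966289 on the plus strand. The others are on the minus strand, *Rpl13a* at chr7:45128731-45128760, *Rps27* at chr3:90213634-90213663, *Rps27rt* at chr9:114982725-114982754 and *Rpl41* at chr10:128549154-128549183.
Rpl24: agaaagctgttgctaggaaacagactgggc
Rpl13a: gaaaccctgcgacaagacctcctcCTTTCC
Rps27: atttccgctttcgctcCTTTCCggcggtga
Rps27rt: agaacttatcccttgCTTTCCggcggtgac
Rpl41: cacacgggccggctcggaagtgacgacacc

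A start was found for 66 of the 87 members. The letters CTTTCC stood on the sense strand within 30 bases of the start in 13 of the 66 (19.7%), in 920 of the 27025 genes with a RefSeq start (3.4%), and in 3 of 69 mitochondrial ribosomal protein genes (4.35%). On the other strand they stood in 3.03% of the members and 3.13% of all genes with a start. An annotated start with C followed by 4 bases that are each C or T was found in 15 of the 66 members (22.7%), in 3.01% of all genes and in 0 of the 69 mitochondrial ribosomal protein genes. Annotated starts can lie some bases away from the start in use, so a gene without these letters may still have a TOP motif. The 11 canonical genes with CTTTCC had a median log2 fold change of -0.22, and the 46 without it -0.24.

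Ribosomal protein mRNAs were abundant in every library. The canonical genes had a median level of 336 FPKM over the 6 libraries, against 7.43 FPKM for all 9030 genes tested. Of the 200 genes with the highest mean FPKM, 40 were members. The levels spanned 22.2-fold from *Rpl21* (45.6 FPKM) to *Rpl41* (1011 FPKM), although the proteins stand in the ribosome in nearly equal numbers. The 5 members with the highest means were *Rpl41*, *Rplp1*, *Rps29*, *Rpl10* and *Rps23*. The median was 283 FPKM for the large subunit, 396 FPKM for the small subunit and 510 FPKM for the stalk. The order of close neighbours in these levels is not resolved, and *Rpl41* and *Rplp1* overlapped in their values over the libraries.

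The members held 6.19%, 6.10% and 6.66% of the summed FPKM in CKO libraries 1 to 3 and 6.84%, 6.90% and 7.17% in Control libraries 1 to 3. The groups did not overlap. The means were 6.32% ± 0.300 (SD, n = 3) and 6.97% ± 0.177 (SD, n = 3), a difference of -0.650 percentage points. The difference lay between -0.822 and -0.543 points when each library was left out in turn. In the plot of shares by library, the large and the small subunit lay lower in the CKO libraries, while the stalk overlapped. A share is relative, and depends on what the other genes do. In bulk RNA, fewer cells of a type and less RNA per cell cannot be told apart.

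**Figure D1:**
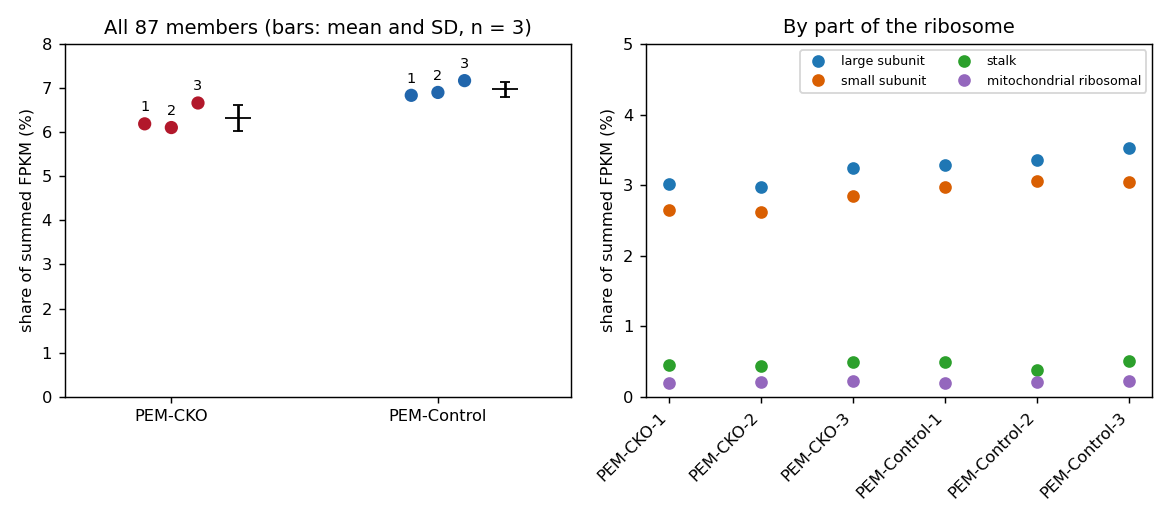
Share of the summed FPKM (%) held by the 87 members in each library, with numbers for the libraries and bars for the mean and SD of 3 libraries (left), and the same for the large subunit, the small subunit, the stalk and mitochondrial ribosomal proteins (right). The 3 PEM-CKO libraries lie between 6.10% and 6.66%, all below the PEM-Control libraries at 6.84% to 7.17%.

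Of the 85 members tested (*Rpl32l* and *Rpl39l* were under 1 FPKM in both groups), 1 was past the threshold of an adjusted p under 0.05 in limma. It was *Rpl24*, lower in the CKO libraries. Over all genes, 7.31% were called, 2.57% higher and 4.74% lower. The differences were small but mostly of a single sign. The log2 fold change of CKO against Control was below 0 for 81 of the 85 members (95.3%), against 63.5% of all genes tested, and its median was -0.23 for the members and -0.11 for all genes. All CKO libraries lay below all Control libraries for 45 of the 85 members (52.9%), which was found for 23% of all genes. For no member did all CKO libraries lie above, which was found for 11.1% of all genes. At an unadjusted p under 0.05, 25 members were lower (29.4%, against 17.7% of all genes) and 0 higher (9.93% of all genes). The count of 25 was 13 under the replicate block, where 1745 of all 9030 genes were lower, a larger share. It was 2 without CKO library 1 (942 of all genes), 3 without CKO library 2 (929) and 10 without Control library 2 (1118). It was 19 without Control library 1 (2069) and 20 without CKO library 3 or Control library 3 (1572 and 1639).

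These counts depended on how the libraries were scaled. FPKM divides by the reads of the library, while the median of ratios, the scaling behind the group means that were deposited, follows the typical gene and moved the median of all genes from -0.11 to 0.01. With it the median of the members was -0.08, with 62 lower and 23 higher (72.9% lower, against 48.4% of all genes). All CKO libraries then lay below all Control libraries for 13 members (15.3%), close to the 15.6% of all genes, and above them for 1 member, *Rpl41* (17.2% of all genes). An unadjusted p under 0.05 was then reached by 2 members that were lower (2.35%, against 12.2% of all genes), and no member was called, against 7.41% of all genes. Relative to the median of all genes, the members' median lay lower by a similar amount under both scalings (-0.11 and -0.09). This gap could hardly have changed, because the scaling divides all genes of a library by 1 factor, so it is no check of the difference.

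**Figure D2:**
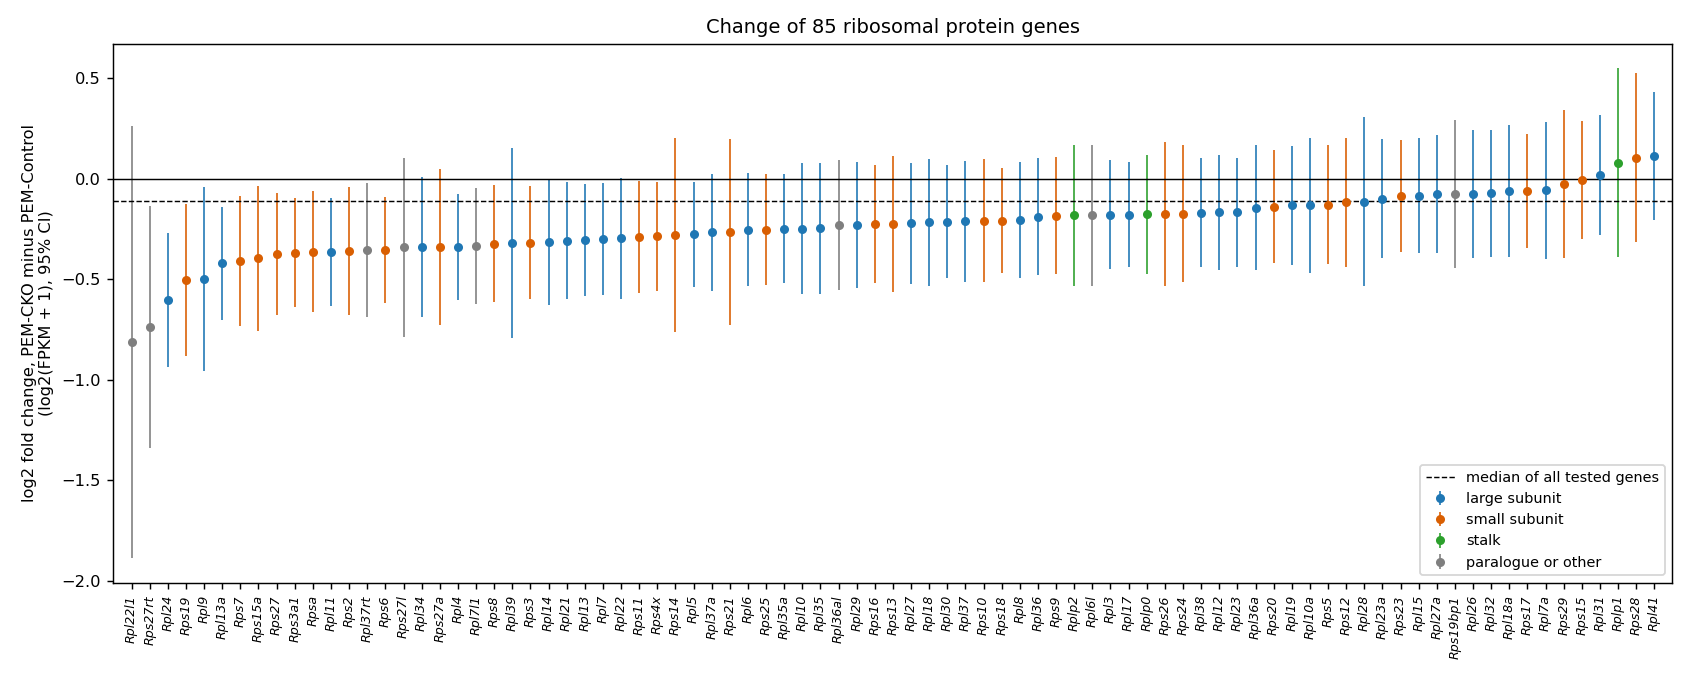
Log2 fold change of PEM-CKO against PEM-Control on the log2(FPKM + 1) scale for the 85 members tested, in rising order, with 95% confidence intervals from limma; colours give the part of the ribosome and the dashed line the median of all tested genes (-0.11). The points run from -0.81 (*Rpl22l1*) to 0.11 (*Rpl41*), and 81 lie below 0.

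Among the 43 large subunit genes, 41 had a log2 fold change below 0 and 25 had all CKO libraries below all Control libraries (58.1%, against 23% of all genes), with a median of -0.21. With the median of ratios 30 were below 0 and 5 had groups apart in this way (11.6%, against 15.6% of all genes), with a median of -0.07. *Rpl24* (Entrez gene 68193) codes for a protein at the contact between the subunits that helps them to join. Its level was 362, 376 and 453 FPKM in the CKO libraries and 582, 663 and 562 FPKM in the Control libraries. No CKO library reached the lowest Control library. The log2 fold change was -0.60 (SE 0.14, 95% CI -0.94 to -0.27), or 0.659-fold, with a limma adjusted p of 0.0494. This call was just inside the threshold. It was lost under the replicate block (adjusted p = 0.0692, with 9.47% of all genes called), with the median of ratios (log2 fold change -0.46, adjusted p = 0.0982), and in 5 of the 6 fits with a library left out (adjusted p from 0.0505 to 0.205), in which the log2 fold change lay between -0.70 and -0.53. Fewer genes were called at all in the 3 of these fits without CKO library 1, CKO library 2 or Control library 2 (30, 63 and 8 of 9030). It was kept without Control library 3 (adjusted p = 0.0352).

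*Rpl13a*, whose protein is also known as a part of the interferon-gamma-activated inhibitor of translation (GAIT) complex of myeloid cells, stood at 264, 269.9 and 293 FPKM in CKO and at 372, 390.1 and 347 FPKM in Control. The groups were apart, and the log2 fold change of -0.42 (SE 0.12) did not pass the threshold (adjusted p = 0.0753). *Rpl9* stood at 239.7, 208 and 249 FPKM against 279, 434 and 290.1 FPKM. Here Control library 2 was far above the rest, and the log2 fold change of -0.50 (adjusted p = 0.154) was -0.30 without it. *Rpl11* and *Rpl5*, whose proteins bind Mdm2 when ribosome assembly is disturbed, had log2 fold changes of -0.36 and -0.28, both with groups that did not overlap and adjusted p-values of 0.0967 and 0.162. *Rpl10*, whose protein joins the large subunit late in its assembly, stood at 624, 607 and 690.2 FPKM against 664, 790.1 and 835 FPKM, and the groups overlapped.

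The largest positive value of any member was that of *Rpl41*, which codes for a very short basic protein. It stood at 1049, 989 and 1108 FPKM in the CKO libraries, against 1002, 852 and 1068 FPKM in the Control libraries. The groups overlapped, and the log2 fold change was 0.11 (95% CI -0.21 to 0.43, adjusted p = 0.624). It was 0.018 without Control library 2 and 0.18 without Control library 3. *Rpl31* was the other large subunit gene above 0, at 0.02 (95% CI -0.28 to 0.32), and was -0.06 without Control library 2.

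Among the 31 small subunit genes, 30 had a log2 fold change below 0 and 17 had all CKO libraries below all Control libraries (54.8%, against 23% of all genes), with a median of -0.25. With the median of ratios 23 were below 0 and 7 had groups apart in this way (22.6%, against 15.6% of all genes), with a median of -0.11. None was past the threshold. *Rps19*, the gene most often mutated in Diamond-Blackfan anaemia, had the largest negative value. Its level was 160.2, 174 and 197 FPKM in the CKO libraries and 220.5, 300.4 and 237 FPKM in the Control libraries. The groups were apart (log2 fold change -0.50, SE 0.16, adjusted p = 0.101). *Rps6*, whose protein is the main substrate of S6 kinases, stood at 215, 215 and 227 FPKM against 271, 288 and 282 FPKM. Its groups were apart with little spread inside each, and the log2 fold change was -0.35 (SE 0.11, adjusted p = 0.0968). *Rps3a1* (-0.37, adjusted p = 0.0967) was similar in size, as were *Rps7* (-0.41) and *Rps27* (-0.38).

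*Rps29* and *Rps23*, with the highest means of the small subunit, and *Rps28* lay close to 0. *Rps29* stood at 728, 721 and 833 FPKM in CKO and at 892, 647 and 799 FPKM in Control, a log2 fold change of -0.03. *Rps23*, whose protein lies at the decoding centre, stood at 605, 624 and 681 FPKM against 695, 647 and 684 FPKM, a log2 fold change of -0.09. *Rps28* stood at 591, 553 and 656 FPKM against 656, 437 and 602 FPKM, a log2 fold change of 0.10 (adjusted p = 0.734). In all 3 genes the groups overlapped, and in all 3 Control library 2 was the lowest control. Without that library the values were -0.15, -0.12 and -0.07.

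The stalk of the large subunit, made of P0, P1 and P2, recruits the GTPases of translation. *Rplp0*, which is often used as a reference gene, stood at 469.5, 451 and 514 FPKM in CKO and at 554, 495 and 574 FPKM in Control. *Rplp2* stood at 456, 394 and 498 FPKM against 503, 456 and 572 FPKM. Both had a log2 fold change of -0.18, with overlapping groups and adjusted p-values of 0.392 and 0.458. *Rplp1* stood at 977, 960.0 and 1083 FPKM against 1180.2, 710.4 and 1027 FPKM. Its log2 fold change of 0.08 (SE 0.20) was -0.13 without Control library 2, where its level was 0.644 of the mean of the other controls.

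**Figure D3:**
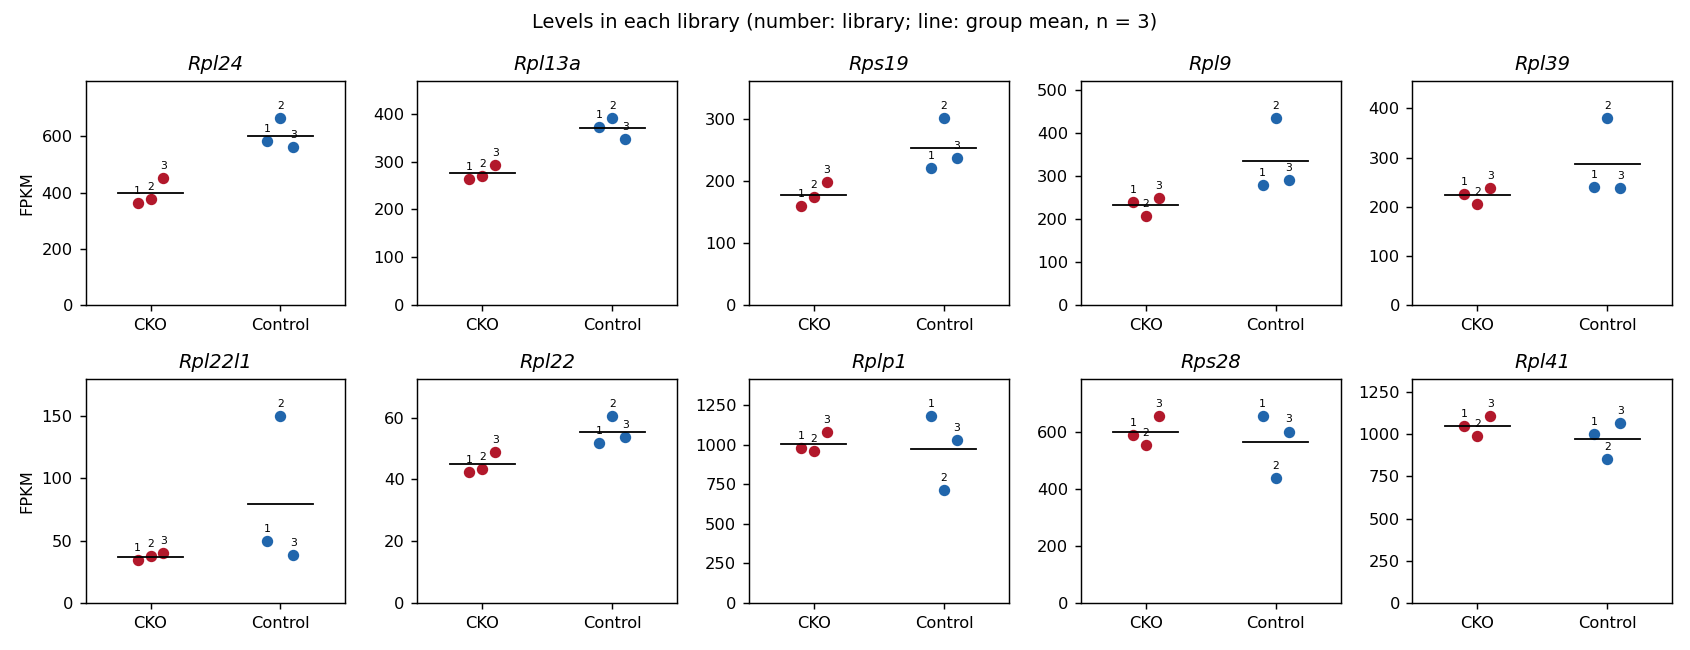
FPKM of 10 members in each library, with the library number beside each point and a line at the mean of 3 libraries per group; each vertical axis starts at 0. *Rpl24*, *Rpl13a*, *Rps19*, *Rpl9* and *Rpl22* show groups that do not overlap, and Control library 2 is the highest point for these 5 genes and for *Rpl39* and *Rpl22l1*, and the lowest for *Rplp1*, *Rps28* and *Rpl41*.

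Some ribosomal proteins have a paralogue, and which of the pair is expressed differs between tissues. Of 9 such pairs looked up, 5 had both genes in the table. *Rpl22* (50.1 FPKM) and *Rpl22l1* (58.2 FPKM) had means of this order only through Control library 2, and *Rpl22* was the higher of the pair in the other 5 libraries. *Rpl36a* (222 FPKM) and *Rpl36al* (192 FPKM) had similar means. *Rpl7* (379 FPKM) was 13.1 times as high as *Rpl7l1* (28.9 FPKM), and *Rps27* (513 FPKM) was 32.3 times as high as *Rps27l* (15.9 FPKM). *Rpl39l*, whose protein is best known from the testis, was at 0.196 FPKM with 3 to 12 reads per library, against 255 FPKM for *Rpl39*. *Rpl3l*, *Rpl10l*, *Rpl26l1* and *Rps4l* were not among the listed genes, while each of their partners was.

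*Rpl22l1* had the largest negative log2 fold change of the members, -0.81 (SE 0.46, adjusted p = 0.288). Its level was 34.1, 37.2 and 40.3 FPKM in the CKO libraries and 49.6, 149.9 and 38.4 FPKM in the Control libraries. The groups overlapped, and the value came mostly from Control library 2, at 3.41 times the mean of the other controls. Without it the log2 fold change was -0.23. *Rpl22*, its partner, stood at 42.3, 43.3 and 49.0 FPKM against 51.8, 60.5 and 53.8 FPKM, with groups apart and a log2 fold change of -0.30 (adjusted p = 0.185). *Rpl7l1* and *Rps27l* had log2 fold changes of -0.34 and -0.34, beside -0.30 for *Rpl7* and -0.38 for *Rps27*, and without Control library 2 *Rps27l* was at -0.16 and *Rps27* at -0.33. *Rpl36al* was at -0.23 beside -0.14 for *Rpl36a*, and without Control library 2 they were at -0.30 and -0.24. None of these passed the threshold.

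*Rps27rt*, a near-copy of *Rps27* at another locus, stood at 4.39, 3.80 and 6.92 FPKM against 7.52, 12.4 and 7.32 FPKM (log2 fold change -0.74, adjusted p = 0.121). It had 60 to 181 reads per library. Of the 325 stretches of 50 bases in its GENCODE transcripts, 296 also occur in those of *Rps27* (91.1%), so its reads and those of *Rps27* may have been shared out in counting. The share was 35.0% for *Rpl37rt* against *Rpl37* and 19.4% for *Rpl32l* against *Rpl32*. It was 0 for *Rpl7l1*, *Rpl22l1*, *Rpl36al*, *Rpl39l* and *Rps27l*. For *Rpl6l* no transcript sequence was found, so the share with *Rpl6* is unknown. How reads with several matches were treated is not given in the sources used here, so the values of the 3 near-copies are uncertain.

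Control library 2 stood apart in the balance between ribosomal proteins. The level of each canonical gene was set against its own mean over the 6 libraries on the log2 scale. The SD of these deviations over the 77 genes was 0.22 in Control library 2 and 0.07 to 0.11 in the other 5 libraries. Across 1212 other genes with a mean of at least 45.6 FPKM, that of the lowest canonical gene, the SD in Control library 2 was 0.42. This was inside the range of 0.27 to 0.53 over the libraries. These genes were not matched to the canonical genes in level, and their larger SDs also hold differences between the groups. The differences between pairs of libraries of the same group had SDs of 0.24 and 0.28 over the canonical genes for the pairs with Control library 2, and 0.08 to 0.13 for the other 4 pairs.

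In Control library 2 *Rpl39* was 1.59 times, *Rpl9* 1.53 times, *Rps21* 1.50 times, *Rps14* 1.44 times and *Rps27a* 1.41 times the mean of the other controls. *Rplp1* (0.644), *Rpl28* (0.683), *Rps28* (0.695), *Rps29* (0.764) and *Rpl10a* (0.776) were below it. These genes are from both subunits and the stalk, and were chosen after their values were seen. The median of the canonical genes was not displaced in this library: it was 0.10 in Control libraries 1 and 2 and 0.13 in Control library 3, against -0.14, -0.17 and -0.03 in CKO libraries 1 to 3. Without Control library 2, 84 of the 85 members had a log2 fold change below 0, the median was -0.23, and the SD of the fold changes over the canonical genes was 0.09, against 0.14 with it. No member was called without it, when 8 of all genes were (0.0886%).

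**Figure D4:**
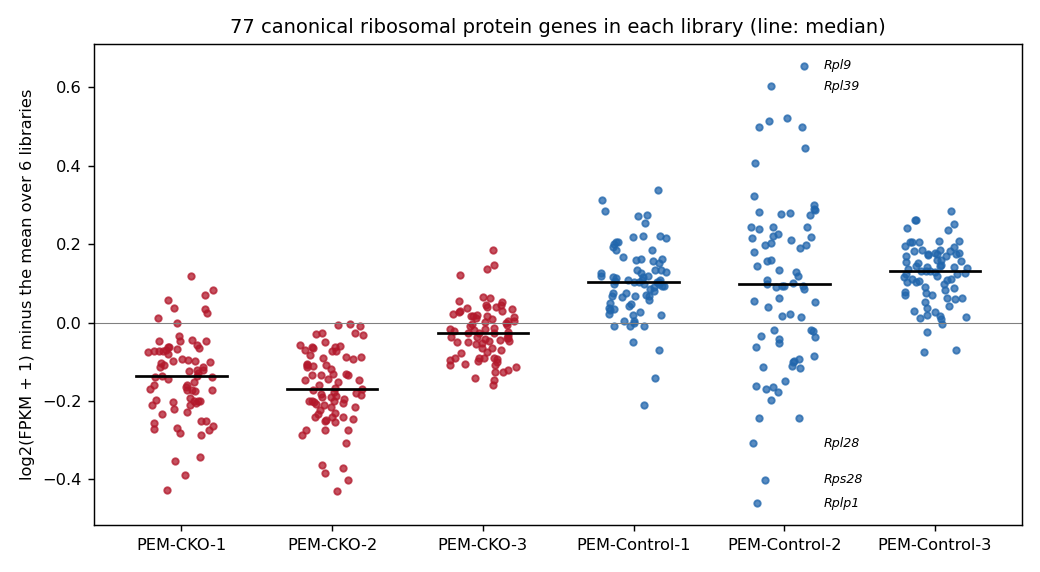
Level of the 77 canonical genes in each library, as log2(FPKM + 1) minus the gene's own mean over the 6 libraries; each point is a gene and the line is the median. The points of PEM-Control-2 spread widely (SD 0.22) around a median of 0.10 that is close to those of the other controls.

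The fold change had a weak relation to level. Over the 77 canonical genes, Pearson's r between the log2 fold change and the log2 of the mean FPKM was 0.28 (Spearman's rho 0.29), and it was 0.10 (rho 0.12) without Control library 2. The 25 genes with the highest means had a median log2 fold change of -0.18 and the 25 with the lowest -0.25, or -0.22 and -0.25 without Control library 2. With gene length r was -0.25 (rho -0.27). The genes share their libraries and are not independent replicates.

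Of 3786 genes outside the members with a mean of at least 10 FPKM, the 5 whose level followed the members' median most closely over the 6 libraries were *Cat*, *Psmd5*, *Hmox1*, *Zc3h13* and *Phlda1*, with Pearson's r between 0.994 and 0.997. The 6 points form the 2 groups of the design, so such a value mostly states that a gene was lower in the CKO libraries, and less so in CKO library 3. Their changes were much larger than those of the members. *Cat*, which codes for catalase, stood at 31.9, 26.4 and 51.4 FPKM in CKO and at 109.6, 116 and 128 FPKM in Control.

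Of the ribosomal proteins that the symbols do not take in, *Fau* (-0.25, or -0.11 with the median of ratios) and *Rack1* (-0.17, or -0.02) had log2 fold changes that did not pass the threshold. *Fau* codes for a small subunit protein made as a fusion with a ubiquitin-like protein, and *Rack1* for a scaffold on the small subunit. The genes of translation factors gave no call. Of 10 elongation factor genes tested, 9 had a log2 fold change below 0 (median -0.14), and 5 of 10 with the median of ratios (median -0.02). *Eef1a1* was at 0.06 and *Eef2* at -0.04, and *Tpt1*, another abundant TOP mRNA, was at -0.07. Of 35 initiation factor genes, 27 were below 0 (median -0.17), and 20 with the median of ratios (median -0.03). Of 77 mitochondrial ribosomal protein genes, 53 were below 0 with a median of -0.07, and with the median of ratios 53 were above 0 with a median of 0.06. The scaling shifts all genes nearly alike, and moved the median of all genes from -0.11 to 0.01. Under both scalings the mitochondrial median lay above that of all genes.

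Genes of ribosome assembly gave some calls. Of 51 genes of snoRNP and rRNA processing factors, 6 fell (*Gnl3*, *Nop58*, *Utp4*, *Wdr75*, *Mphosph10* and *Tsr1*) and 0 rose, where 4.74% of all genes were called lower, with a median log2 fold change of -0.30. With the median of ratios the counts were 5 and 0 and the median -0.18. Without CKO library 1, CKO library 2 or Control library 2, no gene of this list was called, and with no filter on low values 2 were. *Gnl3*, which codes for the nucleolar GTPase nucleostemin, stood at 11.5, 11.1 and 14.9 FPKM in CKO and at 20.9, 28.2 and 32.0 FPKM in Control (log2 fold change -1.05, adjusted p = 0.0263). Of 15 genes of RNA polymerase I and its factors, *Polr1b* alone was called (-0.54, adjusted p = 0.0457), and it was not called under the replicate block (adjusted p = 0.0518). *Ncl* (-0.33) and *Npm1* (-0.30), which code for abundant nucleolar proteins, did not pass.

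Of 22 other TOP mRNAs, 2 fell, where 4.74% of all genes were called lower. The count was 1 under the replicate block and with the median of ratios, and 0 without CKO library 1, CKO library 2 or Control library 2. *Gas5*, a noncoding host gene of snoRNAs, stood at 34.9, 33.4 and 45.3 FPKM against 60.8, 69.5 and 67.3 FPKM (log2 fold change -0.79, adjusted p = 0.0292), and *Nap1l1* was at -0.68 (adjusted p = 0.0476). Of 21 genes of mTOR, S6 kinases and TOP mRNA regulators, 2 fell and 0 rose, where 4.74% of all genes were called lower and 2.57% higher, and other fits called other genes of the list higher. With each library left out, 0 to 4 fell and 0 to 2 rose, and 0 fell without CKO library 1, CKO library 2 or Control library 2. *Rps6ka2*, an S6 kinase gene of the RSK family chosen after its values were seen, had the largest difference of the list, at 35.6, 38.9 and 27.5 FPKM in CKO and 6.50, 10.3 and 21.5 FPKM in Control (log2 fold change 1.48, adjusted p = 0.0574, or 0.0413 with the median of ratios and 0.0469 with voom). *Mxd1* was called higher under the replicate block (log2 fold change 0.77, adjusted p = 0.0349, or 0.0739 without the block). *Myc*, which codes for a transcription factor that activates genes of ribosome assembly, stood at 4.31, 5.79 and 5.69 FPKM against 15.8, 10.4 and 11.8 FPKM (log2 fold change -1.12, adjusted p = 0.0196). *Rps6ka1*, of the same kinase family, was at -1.06 (adjusted p = 0.0220). *Gnl3*, *Polr1b*, *Gas5*, *Myc* and *Rps6ka1* all lost their call without Control library 2 (adjusted p = 0.123, 0.154, 0.124, 0.0824 and 0.106 in that order), in a fit that called 0.0886% of all genes. Their log2 fold changes there were -1.01, -0.53, -0.75, -1.24 and -1.07.

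The summed levels of B cell, mast cell, neutrophil and eosinophil markers did not overlap between the groups and were lower in CKO. So were those of the general macrophage markers (3219 to 7864 FPKM in CKO, 9801 to 11565 FPKM in Control), where *Lyz2* held most of the Control sums. Those of T cell, mesothelial and fibroblast, and large and small peritoneal macrophage markers overlapped. The sums do not stand for every gene of a list. In the B cell, mast cell and neutrophil lists 1 tested gene each had a positive log2 fold change, *Cd22* (0.01), *Hdc* (0.47) and *Csf3r* (0.46), and *Mmp8* overlapped between the groups. The calls in these lists stand beside 4.74% of all genes called lower and 2.57% higher. Of 7 markers of large peritoneal macrophages tested, 3 fell, *Prg4* (log2 fold change -3.97), *Vsig4* (-2.17) and *Icam2* (-1.05). The summed level overlapped at 634 to 748 FPKM in CKO and 692 to 836 FPKM in Control. *Cd9* and *Adgre1* made up most of this sum in every library (392 and 237 FPKM in CKO library 1), so it says little about the other markers. The count of 3 was 4 under the replicate block and 0 to 5 with each library left out, 0 without Control library 2, 1 without CKO library 1 and 5 without Control library 3. Of 9 markers of small peritoneal macrophages tested, *Retnla* (-6.13) and *Irf4* (-1.55) fell and *Mrc1* (0.57) rose, with sums of 661 to 1471 FPKM and 1087 to 5947 FPKM. None of the 9 was called without CKO library 1, 2 or 3 or Control library 2. The summed level of 11 listed B cell markers was 11.6 to 12.9 FPKM in the CKO libraries and 39.0 to 140.7 FPKM in the Control libraries, with 7 of 8 tested lower past the threshold. This count was 5 with the median of ratios, 3 with voom, 4 without CKO library 3, 1 without CKO library 2, and 0 without CKO library 1 or Control library 2. *Ighm*, *Ighd* and *Igkc* were not among the listed genes. The 8 mast cell markers summed to 9.42 to 16.9 FPKM against 46.8 to 54.2 FPKM (5 of 6 tested lower, 4 under the replicate block and 4 to 5 with each library left out), and the 8 listed neutrophil markers to 109 to 230.3 FPKM against 232 to 479 FPKM (2 of 6 lower, 1 with the median of ratios or without CKO library 2, 0 without CKO library 1 or Control library 2, and 3 without Control library 3). Mesothelial and fibroblast markers summed to 13.6 to 35.7 FPKM against 2.14 to 16.0 FPKM (0 of 5 called, but 2 called higher under the replicate block and 2 without Control library 3). T cell markers stayed under 5 FPKM and the 4 listed eosinophil markers under 2 FPKM in every library. The part of these cells in the levels of ribosomal protein mRNAs was not tested.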

How the data were processed

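The authors deposited 1 table with an FPKM value per gene and library. The header does not name this unit, which was taken from the values. The signal columns the authors deposited are group means of reads divided by size factors, and gave back whole reads (100% of values within 0.05 reads). The authors' columns of fold changes, log2 fold changes, p-values and q-values were not used. The labels name the build mm9, and the aligner, counting and annotation are not given in the sources used here. Listed genes all had an overall base mean above 1, while the level could be 0 in all libraries of a group.

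The values of log2(FPKM + 1) were modelled in R 4.3.3 by limma 3.58.1 (lmFit, then eBayes with trend = TRUE) for the 9030 genes with a mean of at least 1 FPKM in one group, with Benjamini-Hochberg adjustment over all of them and a threshold of 0.05. A pseudocount of 1 understates the change of low genes. A two-sided exact permutation test of 3 against 3 cannot go below p = 0.1. Libraries were grouped by title. Fits were tested on simulated data.

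The members named in full were the 5 with the highest means, the 6 with the largest increases and the 6 with the largest decreases (only 4 had an increase), those past the threshold, the stalk, and paralogue pairs. Outside the members, fixed reference genes and the largest call of each translation list were named, and an item of the fixed genes is not reported here. *Rpl11*, *Rpl5*, *Rps6*, *Rps3a1*, *Rps7*, the Control library 2 genes and the remaining called list genes were chosen once their values were known. The members and lists were chosen with earlier results of these data known. Deviations of same-numbered libraries from their group means correlated at 0.11, 0.11 and 0.30, each above 0.1, and those of other numbers between -0.33 and 0.29 (the highest for CKO library 2 with Control library 1), so the replicate number was taken as a pairing on this check alone, since no label says what it marks. Alternatives were other pseudocounts and filters, the median of ratios, voom on recovered reads, the block, no trend, a fold threshold, and each library left out.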

Additional observations from a re-analysis of the deposited data

How the results depend on the processing

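The 1 member past the threshold became 0 with no filter on low values, the median of ratios, voom, the replicate block (where 855 of all genes were called) and a log2 fold change of at least 1 as a second threshold. It was 0 to 1 when each library was left out. Over all genes the 660 calls (7.31% of 9030 tested) became 436 with a minimum of 5 FPKM (7.54% of 5779), 446 with no filter on low values (2.89% of 15415) and 346 with the fold threshold, and 8 to 1278 with each library left out, the lowest without Control library 2. The median log2 fold change of the members became -0.079 with the median of ratios and -0.080 with voom, and -0.287 to -0.186 with each library left out. The 45 members whose groups did not overlap, all lower in CKO, became 14 with the median of ratios. Of these 14, 13 were lower and 1 (*Rpl41*) was higher. Of all genes, 23% had all CKO libraries below all Control libraries and 11.1% above. With the median of ratios these shares of all genes were 15.6% and 17.2%. The sign turned for some named genes near 0. With the median of ratios and with voom, *Rps29* became 0.12 and 0.12, *Rps23* 0.060 and 0.060, *Rpl36a* 0.0029 and 0.0022, *Eef2* 0.11 and 0.11, and *Tpt1* 0.081 and 0.081. With each library left out, the lowest and highest values were -0.13 and 0.23 for *Rplp1*, -0.15 and 0.078 for *Rps29*, -0.064 and 0.067 for *Rpl31*, -0.070 and 0.22 for *Rps28*, -0.039 and 0.13 for *Eef1a1*, and -0.14 and 0.073 for *Eef2*. The difference in the share of the summed FPKM was computed with each library left out and with the minimum of 5 FPKM, and kept its direction in these. No cause of these changes was tested.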
